A study of Rattus norvegicus with 8 samples.

Results

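The genes described here mark the cells of brain blood vessels: 36 genes, of which 23 belong to endothelium and its barrier and 13 to mural cells (pericytes and smooth muscle) and vessel fibroblasts. They were listed by gene symbol, by no cut on a measured value but with earlier results of these data known, and a gene's value is the mean log2 ratio over its probe sets annotated to that gene alone. On chip A 33 of the 36 had such a probe set, among 10411 named genes; on chip B 3 did (Tjp1, Abcg2 and Des), among 5667. Abcg2 was read on chip B only, and Cdh5 and Itm2a were named by no single-gene probe set on either type. The series holds 1 population, A2B5/OTMP+ cells taken by flow cytometry from rat brain at postnatal day 7 and called perineuronal oligodendrocytes in its title. RNA of 4 biological replicates was read on each of 2 Affymetrix array types, chip A and chip B, which makes 8 samples. Strain, sex, treatment and the number of animals behind a replicate are not given in the sources used here, and there was no control group. The p-values below therefore compare no groups. They set a gene's distance from a ratio of 1 only against the spread between these replicates, which limma moderates over all genes.

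Endothelial cells line the vessel. In brain they are sealed by tight junctions and carry efflux pumps and uptake carriers, which together form the blood-brain barrier. Pericytes lie on the capillary wall, smooth muscle cells ring the arterioles, and fibroblasts sit around larger vessels and in the meninges. None of these cells belongs to the oligodendrocyte lineage named in the labels.

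Every deposited value was a linear ratio to a reference that no label names. A ratio gives neither a gene's brightness nor whether its transcript was present, and ratios of different genes cannot be ranked as expression levels. Array medians lay between 0.903 and 0.946 (chip A) or 0.888 and 0.967 (chip B), and setting them to a ratio of 1 raises log2 ratios by about 0.12 and 0.10. In limma's two-sided test against a ratio of 1, at an adjusted p under 0.05, 9.17% of chip A genes were higher and 32.9% lower. On chip B the shares were 4.13% and 30.9%. With arrays centred on their medians, higher calls made up 33.4% of all chip A calls in place of 21.8%. Oligodendrocyte lineage markers on chip A had a median log2 ratio of 0.02 over 11 measured genes (1 higher, 1 lower), against 1.19 for 12 astrocyte genes (8 higher) and -0.38 for 72 genes of other organs (42 lower, limma).

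Over all 4 replicates most vascular genes did not differ from the reference beyond their spread, and many varied between replicates more than most chip A genes did. Endothelial genes had a median log2 ratio of -0.00 over 20 genes and mural and fibroblast genes of -0.03 over 13, against -0.14 over all chip A genes. In limma's test 2 of the 33 members on chip A were higher, Vcam1 and Ogn, and 5 were lower, Icam1, Plvap, Mcam, Acta2 and Tagln. These 6.06% and 15.2% lay below the shares of all genes, 9.17% and 32.9%. Of the 20 endothelial genes 17 had their lowest ratio in replicate 1 (Flt4 tied with replicate 4), where 27% of all genes had theirs. Of the 13 mural and fibroblast genes 12 had their highest in replicate 3, where 35.5% of all genes did. So did 45 of 72 genes of other organs and 9 of 11 microglia and macrophage genes. The median SD over the 4 arrays was 0.50 for endothelial genes and 0.33 for mural and fibroblast genes, against 0.20 for all genes, and 9 of the 20 endothelial genes lay above the 95th percentile of all SDs. Other cell type lists also spread widely, at 0.42 for microglia and macrophage, 0.36 for oligodendrocyte lineage and 0.31 for astrocyte genes. Erythroid genes had 0.27 and neuron genes 0.18. The mural and fibroblast spread was thus not particular to that class. In samples of many cells, fewer cells of a type and less RNA per cell cannot be told apart.

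**Figure D1:**
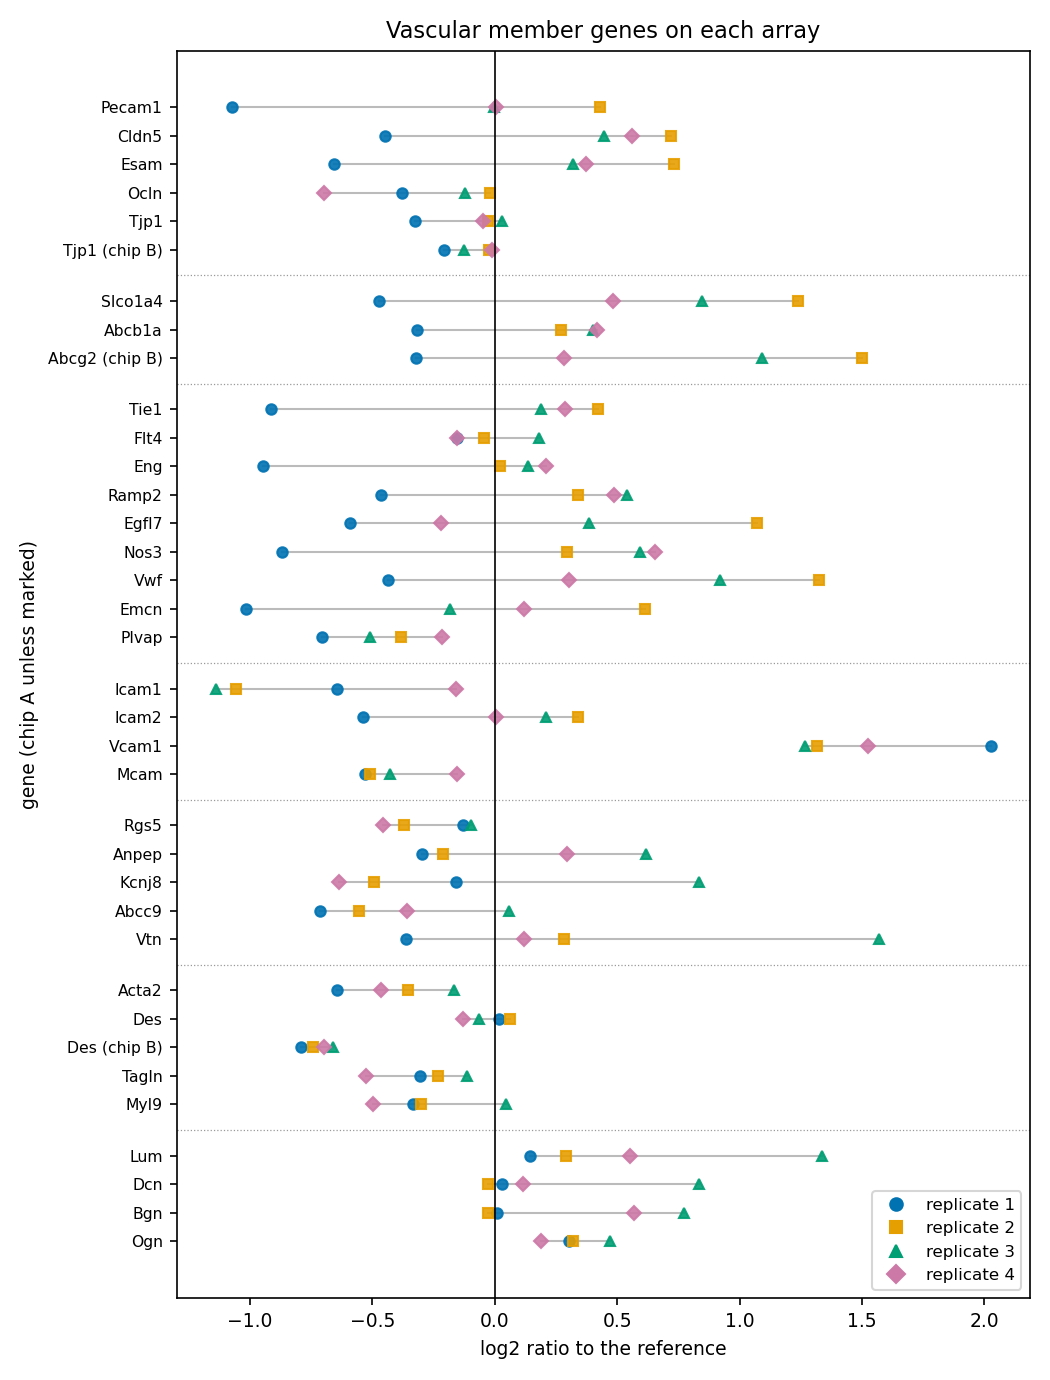
Log2 ratio to the reference (x axis) of every measured member gene (y axis, chip A unless marked chip B), with 1 point per replicate and a grey line from the lowest to the highest. Dotted lines divide the functional groups. Replicate 1 (blue circles) is the lowest point of most endothelial genes in the upper 4 blocks, and replicate 3 (green triangles) the highest of 12 of the 13 mural and fibroblast genes on chip A.

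Because 1 array stood apart in each class, each array was set against the median of the other 3, gene by gene, with a 1.5-fold distance as the mark. This rule was chosen after the values were seen, rests on single arrays and has no test. In replicate 1 on chip A 13 of 20 endothelial genes (65%) lay at least 1.5-fold below, against 4.81% of all genes. They were Pecam1, Cldn5, Esam, Slco1a4, Abcb1a, Tie1, Eng, Ramp2, Egfl7, Nos3, Vwf, Emcn and Icam2. In replicate 1, 1 endothelial gene, Vcam1, lay that far above, where 3.53% of all genes did. In replicate 2, 4 lay above (Slco1a4, Egfl7, Vwf and Emcn, 20%, against 4.77% of all genes) and 0 below (4.44% of all genes). In replicate 3, 2 lay above (5.1% of all genes) and 0 below (4.26%), and in replicate 4, 1 above (4.25%) and 2 below (4.66%). In replicate 2, 5 of 11 oligodendrocyte lineage genes lay below, as did 4 of 12 astrocyte genes. Of 6 erythroid genes 5 were lowest in replicate 1, though 0 by 1.5-fold, their median log2 ratio was -0.20, 0.21, -0.05 and -0.01 in replicates 1 to 4, and 2 of 6 (Hbb and Ahsp) lay above in replicate 2. The part of these cells in the endothelial values was not tested. The count of 13 endothelial genes in replicate 1 was the same with arrays centred on their medians, and 9 lay at least 2-fold below, against 1.01% of all genes.

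Mural and fibroblast genes picked out another replicate. In replicate 3, 7 of 13 (53.8%) lay at least 1.5-fold above the median of the other 3 arrays, against 5.1% of all genes, and 0 below. They were the pericyte genes Anpep, Kcnj8, Abcc9 and Vtn and the fibroblast genes Lum, Dcn and Bgn. At 2-fold the count was 3, against 0.672% of all genes. Replicates 1, 2 and 4 had 0 above (3.53%, 4.77% and 4.25% of all genes), and 2 (Anpep and Vtn), 1 (Bgn) and 0 below (4.81%, 4.44% and 4.66%). Microglia and macrophage genes moved with them: 8 of 11 lay at least 1.5-fold above in replicate 3, among them Csf1r, the receptor for colony stimulating factor, at ratios of 0.726, 0.6, 1.18 and 0.692 in replicates 1 to 4. Their median log2 ratio was -0.46, -0.74, -0.04 and -0.75 in replicates 1 to 4, and 5 of 11 oligodendrocyte lineage genes and 3 of 12 astrocyte genes (Aqp4, Slc1a3 and Fgfr3) also lay above in replicate 3. The part of these cells in the mural result was not tested.

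**Figure D2:**
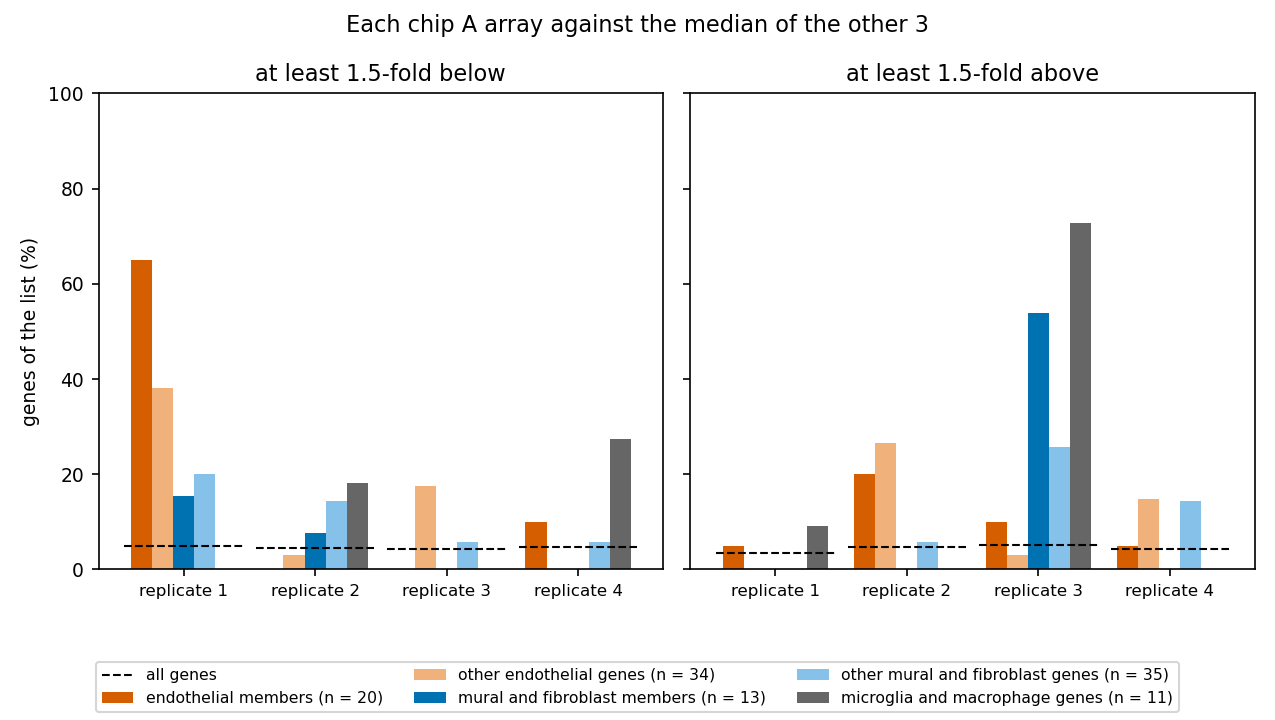
Share of each gene list (y axis, %) lying at least 1.5-fold below (left) or above (right) the median of the other 3 arrays, for each chip A replicate (x axis), with 1 bar per list and a dashed line for all 10411 genes. The tallest endothelial bar is replicate 1 below (65%), and the tallest mural and fibroblast bar is replicate 3 above (53.8%).

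Promoters are printed here of the members with the widest range between arrays among those with 1 entry in RefSeq's promoter table, 3 endothelial and 2 mural, so that genes with a common array pattern can be read side by side, with that of Vcam1, which went the other way. Vwf, with no entry, and Egfl7, with 2, had wider ranges than Emcn and are left out. Each is the stretch of 250 bases before the RefSeq gene start, assembly GRCr8, written 5′ to 3′ on the gene's strand. Capitals in the first 5 mark GGAAG on either strand (CTTCC where it lies on the other), the core bound by ETS factors, which act in endothelial cells and in many others.
Abcg2, chr4:89075224-89075473, plus strand: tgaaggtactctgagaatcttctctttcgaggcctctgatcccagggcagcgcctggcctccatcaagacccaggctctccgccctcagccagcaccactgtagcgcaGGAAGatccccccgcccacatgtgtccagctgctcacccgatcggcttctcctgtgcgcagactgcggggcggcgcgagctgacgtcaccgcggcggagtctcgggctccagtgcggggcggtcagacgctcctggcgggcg
Slco1a4, chr4:176495847-176496096, minus strand: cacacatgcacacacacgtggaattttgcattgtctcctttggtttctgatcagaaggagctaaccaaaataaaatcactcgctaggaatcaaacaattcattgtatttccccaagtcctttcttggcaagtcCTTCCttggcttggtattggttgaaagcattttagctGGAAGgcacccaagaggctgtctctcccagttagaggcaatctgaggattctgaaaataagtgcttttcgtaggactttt
Emcn, chr2:228564289-228564538, plus strand: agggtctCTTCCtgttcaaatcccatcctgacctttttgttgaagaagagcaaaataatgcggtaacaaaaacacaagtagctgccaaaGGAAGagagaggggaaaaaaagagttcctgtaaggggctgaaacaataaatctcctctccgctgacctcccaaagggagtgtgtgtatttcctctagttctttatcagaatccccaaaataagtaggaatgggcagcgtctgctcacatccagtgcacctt
Vtn, chr10:63892532-63892781, plus strand: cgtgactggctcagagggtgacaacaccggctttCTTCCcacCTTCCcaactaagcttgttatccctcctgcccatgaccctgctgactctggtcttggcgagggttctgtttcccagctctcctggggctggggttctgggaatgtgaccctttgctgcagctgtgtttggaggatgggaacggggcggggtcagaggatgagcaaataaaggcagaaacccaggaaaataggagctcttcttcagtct
Kcnj8, chr4:177246549-177246798, minus strand: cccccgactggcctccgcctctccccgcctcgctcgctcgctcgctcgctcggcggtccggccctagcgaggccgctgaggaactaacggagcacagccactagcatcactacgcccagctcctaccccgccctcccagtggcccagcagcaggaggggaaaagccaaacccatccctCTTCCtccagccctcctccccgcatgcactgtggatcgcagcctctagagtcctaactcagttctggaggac
Vcam1, chr2:206742784-206743033, minus strand: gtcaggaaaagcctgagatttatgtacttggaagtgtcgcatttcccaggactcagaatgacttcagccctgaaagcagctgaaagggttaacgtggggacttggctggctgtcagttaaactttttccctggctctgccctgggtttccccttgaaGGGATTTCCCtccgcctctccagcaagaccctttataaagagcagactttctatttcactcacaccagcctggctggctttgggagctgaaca
GGAAG stood in each of these 5, and, counting a member with several entries if any held it, in 12 of the 16 endothelial and 7 of the 9 mural and fibroblast members that RefSeq's promoter table holds. It is a common motif, present in 63.3% of all 33469 promoter windows, so its presence does not set these genes apart. Capitals in the Vcam1 promoter mark a match to the NF-kB motif, 93 to 84 bases before the start and read on both strands. That motif stood in 3.54% of all windows and in 2 of the 25 members with a promoter, and it shares no base with the GGAAG of the Vcam1 promoter, 221 to 217 bases before the start. The CArG box of smooth muscle genes, searched on both strands, stood in 0 of the 25, which says only that these letters are not in these windows, and in 1.5% of all. The contractile members Tagln and Myl9 had no promoter entry and were not among the 25.

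Junction genes showed the replicate pattern in part. Cldn5, which encodes claudin-5, the main tight junction claudin of brain endothelium, had ratios of 0.733, 1.65, 1.36 and 1.48 in replicates 1 to 4. Replicate 1 was below the reference and the others above, and the mean log2 ratio of 0.32 ± 0.52 (SD, n = 4) did not pass (limma adjusted p = 0.253). Pecam1, an adhesion molecule at endothelial contacts, had 0.475, 1.35, 0.997 and 1.003, so replicate 1 was the lowest array and the mean was -0.16 ± 0.64 (SD, n = 4; limma adjusted p = 0.632). Esam, an endothelial adhesion molecule of tight junctions, had 0.635, 1.66, 1.25 and 1.29. Its mean of 0.19 ± 0.59 (SD, n = 4) did not pass either (limma adjusted p = 0.537). As means over their probe sets, the junction genes that epithelia and other cells share varied less. Tjp1, the scaffold protein ZO-1, had 0.798, 0.98, 1.02 and 0.968 on chip A; the chip B probe set gave 0.865, 0.983, 0.917 and 0.993, lowest in replicate 1 on both. Ocln, the tight junction protein occludin, had 0.768, 0.988, 0.92 and 0.616 over a pair of probe sets, and its lowest array was replicate 4. Its probe sets disagreed. One had 0.638, 0.964, 1.036 and 0.844, lowest in replicate 1. The other had 0.925, 1.012, 0.817 and 0.45, and its SD of 0.53 was as wide as that of Cldn5.

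The transporters of the barrier had some of the widest ranges. Slco1a4, an uptake carrier for organic anions, had ratios of 0.72, 2.36, 1.8 and 1.4 in replicates 1 to 4, a 3.28-fold range. Abcg2, a drug efflux pump read on chip B, had 0.801, 2.83, 2.13 and 1.22, a 3.53-fold range. Both were lowest in replicate 1 and highest in replicate 2, with replicate 3 second, although they were read on different array types. For Slco1a4 that order is of the mean of 2 probe sets, of which 1 (0.657, 2.008, 1.263 and 1.34) had replicate 4 second. By the 1.5-fold rule Abcg2, 1 of 2 endothelial members on chip B, lay below in replicate 1 (3.53% of all chip B genes below, 5.29% above) and in replicate 4 (5.51% below, 2.56% above). It lay above in replicate 2 (5.29% above, 3.92% below) and in replicate 3 (4.61% above, 4.01% below), while Tjp1 and Des lay past the mark on no chip B array. Neither passed against the reference: Slco1a4 had a mean log2 ratio of 0.52 ± 0.73 (SD, n = 4; limma adjusted p = 0.18) and Abcg2 of 0.64 ± 0.81 (SD, n = 4; limma adjusted p = 0.201). Abcb1a, the rodent P-glycoprotein pump, had 0.802, 1.21, 1.32 and 1.34, with replicate 1 lowest again. A probe set shared by Abcb1a and its paralog Abcb1b had 1.005, 0.63, 1.36 and 0.723 and was lowest in replicate 2, so that shared probe set did not follow the pattern.

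Endothelial receptors, signalling genes and identity markers had replicate 1 as their lowest array in all 9 measured on chip A (Flt4 tied with replicate 4). Vwf, the von Willebrand clotting factor stored in endothelium, had ratios of 0.738, 2.5, 1.89 and 1.24 in replicates 1 to 4 and a mean log2 ratio of 0.53 ± 0.77 (SD, n = 4; limma adjusted p = 0.194). Egfl7, a secreted endothelial factor, had 0.664, 2.1, 1.31 and 0.858, and its 2 probe sets split in replicate 4, at 1.274 and 0.578. Emcn, the sialomucin endomucin, had 0.494, 1.53, 0.881 and 1.09. Vwf, Egfl7 and Emcn were highest in replicate 2. Nos3, the endothelial nitric oxide synthase, had 0.547, 1.23, 1.51 and 1.57, and Eng, a co-receptor for TGF-beta ligands, 0.519, 1.01, 1.1 and 1.16, both highest in replicate 4. Tie1, an orphan receptor tyrosine kinase of endothelium, had 0.531, 1.34, 1.14 and 1.22, and Ramp2, which makes the calcitonin receptor-like receptor respond to adrenomedullin, 0.724, 1.27, 1.45 and 1.4. The 2 genes with small ranges were Flt4, the VEGF receptor of lymphatic endothelium, at 0.899 to 1.13, and Plvap. Plvap forms the diaphragms of fenestrated and immature vessels and is low in the mature brain barrier. Its ratios of 0.613, 0.766, 0.703 and 0.862 were below 1 on every array. Its mean of -0.45 ± 0.21 (SD, n = 4) was lower than the reference (limma adjusted p = 0.0143), and it passed with each replicate left out in turn. A call below 1 was common, at 32.9% of chip A genes.

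Among leukocyte adhesion genes Vcam1 stood alone. Vcam1, which binds integrins on leukocytes and is made by activated endothelium and by some neural progenitors and astrocytes, had ratios of 4.08, 2.49, 2.4 and 2.88 in replicates 1 to 4. All 4 arrays were more than 2-fold above the reference. The mean log2 ratio of 1.53 ± 0.35 (SD, n = 4; limma adjusted p = 0.000576) ranked at percentile 99 of chip A genes and passed with any replicate left out. Its highest array was replicate 1, where most endothelial genes were lowest. Icam1, a ligand of leukocyte integrins induced by inflammatory signals, had 0.639, 0.481, 0.454 and 0.897, lowest in replicates 2 and 3. Its mean was -0.75 ± 0.45 (SD, n = 4; limma adjusted p = 0.0186). Icam2, made by resting endothelium, had 0.688, 1.27, 1.16 and 1.002, which follows the majority. Its 2 probe sets differed in range, 0.525 to 1.35 against 0.902 to 1.19. Mcam, CD146 of endothelial cells and pericytes, had 0.693, 0.702, 0.742 and 0.899 and a mean of -0.41 ± 0.17 (SD, n = 4; limma adjusted p = 0.0151). That call rested on 1 of 2 probe sets, at 0.517 to 0.71, while the other lay at 0.907 to 1.14.

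Several members that did not pass over 4 replicates passed without replicate 1. Leaving it out, 8 members on chip A were higher in place of 2: Vcam1 and 7 other endothelial genes. Over all genes 716 of 10411 were then higher, in place of 955. The 7 were Cldn5 (mean log2 ratio 0.58), Esam (0.47), Slco1a4 (0.86), Abcb1a (0.36), Ramp2 (0.46), Nos3 (0.51) and Vwf (0.85), with limma adjusted p from 0.0119 for Cldn5 to 0.0363 for Abcb1a. Each of the 7 had its lowest ratio in replicate 1, so leaving that array out was bound to raise its mean. These calls therefore cannot show that the 7 lie above the reference. Leaving out replicate 2, 3 members were called in place of 7, and 3887 of all 10411 genes. Single calls also turned on 1 replicate: Icam1 was not called without replicate 2 (limma adjusted p = 0.0519) or replicate 3 (0.0596), and Mcam not without replicate 1 (0.0603) or 2 (0.0526). Among mural and fibroblast genes Acta2 was lost without replicate 1 (limma adjusted p = 0.0664) or 4 (0.0698), Tagln without replicate 1 (0.121), 2 (0.0884) or 4 (0.135), and Ogn without replicate 1 (0.0643), 2 (0.0609) or 3 (0.0611). Without replicate 3 Abcc9 (-0.54, limma adjusted p = 0.0164) and Myl9 (-0.38, 0.0291) were lower. Both had their highest ratio in replicate 3, so leaving it out was bound to lower their means. These calls cannot show that Abcc9 and Myl9 lie below the reference. With arrays centred on their medians Icam1 (limma adjusted p = 0.0594), Mcam (0.0575) and Tagln (0.134) were not called.

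**Figure D3:**
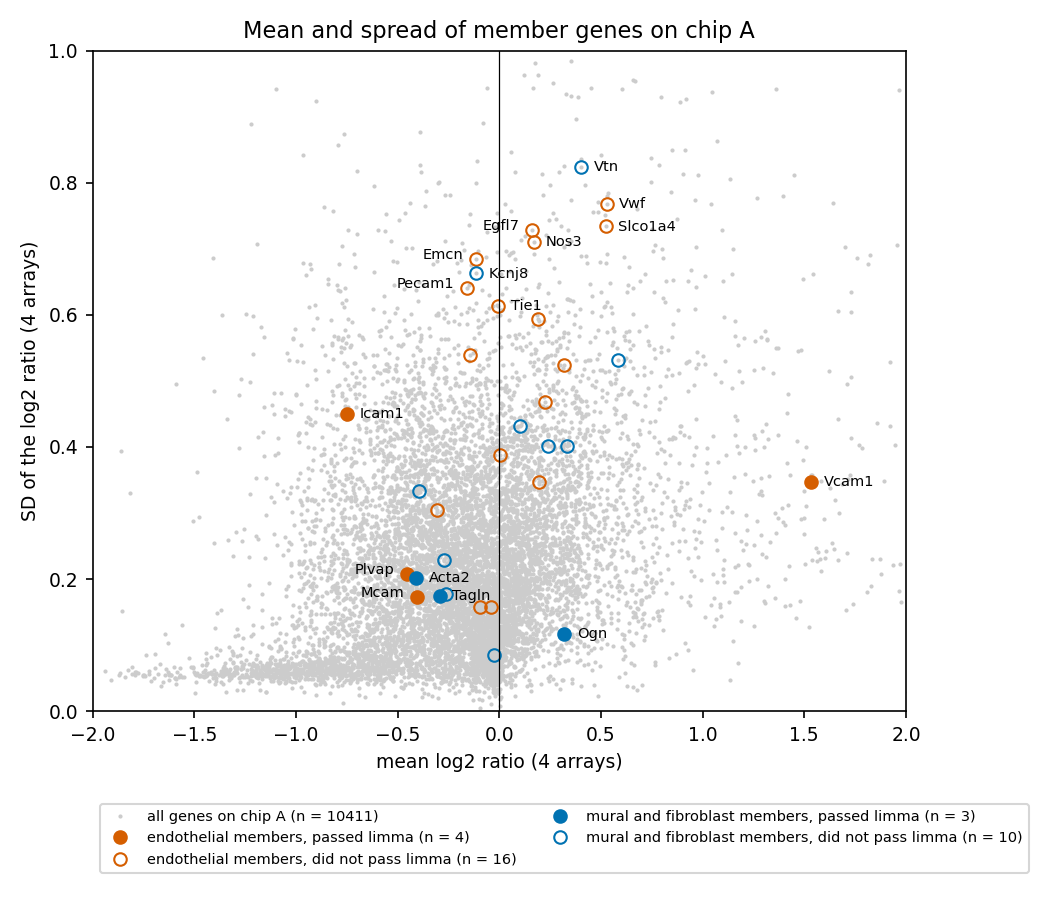
Mean log2 ratio over the 4 chip A arrays (x axis) and its SD (y axis) for all chip A genes (grey) and the members (coloured by class, filled where limma called the gene). Vcam1 stands to the right, and the 9 endothelial genes above the 95th percentile of SDs have means from -0.16 to 0.53; 93 genes lie outside the axes.

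Pericyte genes had a shared high array. Vtn, the adhesion protein vitronectin, which brain pericytes make, had ratios of 0.778, 1.22, 2.97 and 1.09 in replicates 1 to 4. Replicate 3 was far above the others, and the SD of 0.82 lay at percentile 99.2 of chip A genes. Its mean of 0.40 ± 0.82 (SD, n = 4) did not pass (limma adjusted p = 0.34). Kcnj8 and Abcc9 encode the pore Kir6.1 and the sulfonylurea receptor SUR2 of the pericyte and smooth muscle KATP channel. Kcnj8 had 0.897, 0.71, 1.78 and 0.644, and replicate 3 alone was above 1. Abcc9 had 0.609, 0.681, 1.04 and 0.779 as a mean of 3 probe sets that disagreed. One was even and low, at 0.353 to 0.391, and the others ran from 0.752 to 2.09 and from 0.81 to 1.37, both highest in replicate 3. Anpep, the peptidase CD13 of pericytes, had 0.814, 0.864, 1.53 and 1.23. Rgs5, a G protein regulator and defining pericyte marker, had 0.915, 0.773, 0.934 and 0.729, within a 1.28-fold range and below 1 throughout. Its mean of -0.26 ± 0.18 (SD, n = 4) did not pass (limma adjusted p = 0.0632).

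Contractile genes were flat beside them. Acta2, smooth muscle actin, had ratios of 0.639, 0.782, 0.892 and 0.725 in replicates 1 to 4, with a mean log2 ratio of -0.41 ± 0.20 (SD, n = 4; limma adjusted p = 0.0197). Only 1 of its 4 probe sets names Acta2 alone. The other 3 also read the cardiac actin gene Actc1 and ran from 0.698 to 1.08. Tagln, the actin-binding protein SM22, had 0.81, 0.852, 0.925 and 0.694 and a mean of -0.29 ± 0.17 (SD, n = 4; limma adjusted p = 0.0446). Myl9, a regulatory myosin light chain of smooth muscle, had 0.794, 0.812, 1.03 and 0.709 and did not pass (limma adjusted p = 0.0871). Acta2, Tagln and Myl9 were highest in replicate 3, but by less than 1.5-fold over the median of the other arrays. Des, the muscle intermediate filament desmin, stayed at 0.914 to 1.04 on chip A, whereas chip B gave 0.577 to 0.633, where it was lower (-0.72 ± 0.06, SD, n = 4; limma adjusted p = 0.000354). The chip B probe set (SD 0.06) and the chip A one (SD 0.09) were about as even as genes of other organs, whose median SD was 0.08 on chip A. Evenness alone does not show that a probe set read nothing. The astrocyte gene Aldoc was higher on chip A with an SD of 0.06 (mean log2 ratio 0.95, n = 4). Whether either Des probe set read desmin transcript is unknown.

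Fibroblast matrix genes all had means above the reference. Lum, the small proteoglycan lumican, had ratios of 1.11, 1.22, 2.53 and 1.47 in replicates 1 to 4, above 1 on every array and highest in replicate 3. Its mean log2 ratio of 0.58 ± 0.53 (SD, n = 4) did not pass (limma adjusted p = 0.0663). Dcn, the collagen-binding proteoglycan decorin, had 1.02, 0.98, 1.78 and 1.08, so a single array carried its mean of 0.24 ± 0.40 (SD, n = 4; limma adjusted p = 0.282). Bgn, its relative biglycan, had 1.01, 0.982, 1.71 and 1.49 and did not pass (limma adjusted p = 0.149). Ogn, the small proteoglycan osteoglycin, had 1.23, 1.25, 1.39 and 1.14, a narrow range, with a mean of 0.32 ± 0.12 (SD, n = 4; limma adjusted p = 0.0199). Its 4 probe sets differed: 1 lay at 0.784 to 1.03 and another reached 2.48 in replicate 1. Each was highest in a different replicate, with SDs from 0.18 to 0.59, so the narrow range is that of their average.

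The level of endothelial against mural genes was then compared within each array. The endothelial median over 20 genes was -0.53, 0.34, 0.20 and 0.16 on the log2 scale in replicates 1 to 4, and the mural and fibroblast median over 13 genes was -0.16, -0.21, 0.47 and -0.13. The difference, endothelial minus mural, was -0.38, 0.55, -0.27 and 0.29, with a mean of 0.05 ± 0.45 (SD, n = 4). It was negative in replicates 1 and 3 and positive in replicates 2 and 4, so no direction held over the replicates. In replicate 1 the endothelial median was low and the mural one near that of all genes (-0.18), while in replicate 3 the mural one was high. Without the 4 fibroblast genes the difference was -0.23, 0.64, 0.15 and 0.62, with a mean of 0.30 ± 0.42 (SD, n = 4). These are differences between 2 distances from the reference, not between expression levels, and a score over chosen genes is given with no test. On chip B no such comparison was made, since Des was the only mural gene there.

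**Figure D4:**
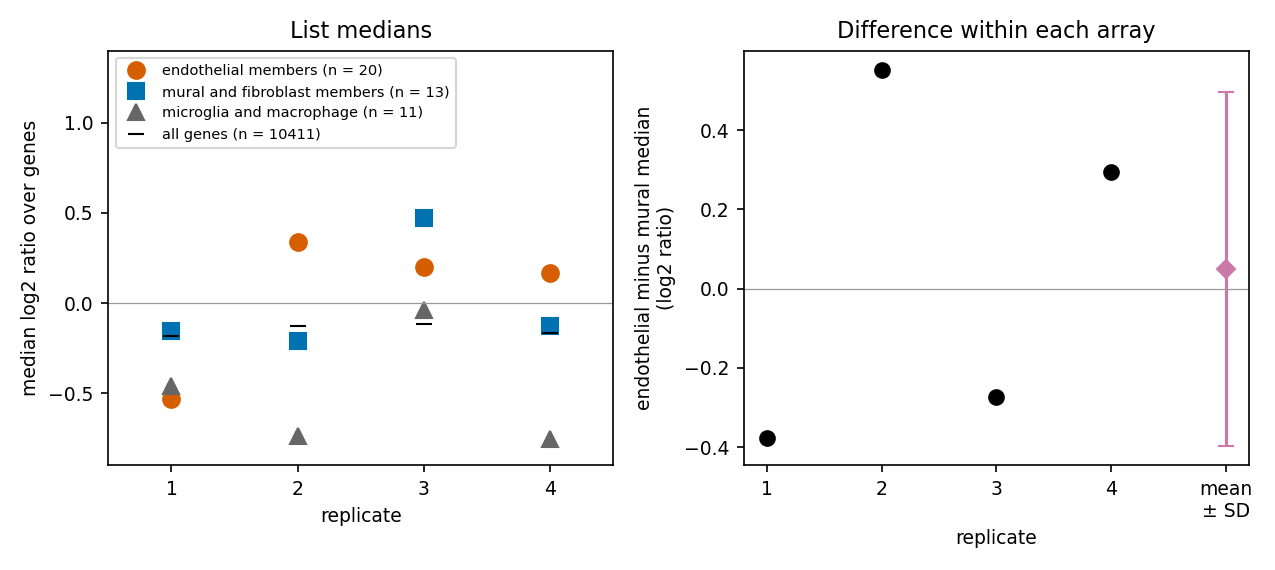
Left, median log2 ratio (y axis) of each gene list on the chip A array of each replicate (x axis), with dashes for all genes. Right, endothelial minus mural median on each array, with the mean ± SD of the 4 replicates. The difference lies between -0.38 in replicate 1 and 0.55 in replicate 2 and changes sign between replicates.

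Other vessel genes outside the 36 followed the members in part. Of 34 other endothelial genes on chip A 3 were higher and 6 lower in limma (8.82% and 17.6%, against 9.17% and 32.9% of all genes), with a median log2 ratio of -0.20, where the members were at -0.00 and all genes at -0.14. The 3 were nutrient carriers that other brain cells share: Slc7a5 for large amino acids (0.49 ± 0.27, limma adjusted p = 0.0203), Slc16a1 for lactate (0.45 ± 0.33) and Slc2a1 for glucose (0.42 ± 0.28). The 5 lowest were Sox17 (-1.18 ± 0.06), Cav2 (-0.91 ± 0.06), Podxl (-0.71 ± 0.15), Selp (-0.71 ± 0.05) and Fli1 (-0.51 ± 0.21), all SD, n = 4. On chip B Cav2 (0.805, 1.075, 1.155 and 0.969 in replicates 1 to 4) and Fli1 (0.743 to 1.354) were not called. Sox17, Cav2 and Selp were about as even on chip A as genes of other organs (median SD 0.08). Evenness does not settle whether their probe sets read these transcripts, which is unknown. In replicate 1 13 of the 34 (38.2%) lay at least 1.5-fold below the median of the other arrays, against 4.81% of all genes, and 0 above. In replicate 2, 9 (26.5%) lay above and 1 below, against 4.77% and 4.44% of all genes. Replicate 3 had 1 above and 6 below (2.94% and 17.6%), against 5.1% and 4.26%. Replicate 4 had 5 above (14.7%) and 0 below, against 4.25% and 4.66%. The 6 below in replicate 3 had no counterpart among the 20 members. Adgrl4, an adhesion receptor of endothelium, had ratios of 0.61, 1.87, 1.39 and 1.25 in replicates 1 to 4, and Mmrn2, an endothelial matrix protein, 0.492, 1.15, 0.976 and 1.03. On chip B 5 of 19 (26.3%) lay that far below in replicate 1, against 3.53% of all chip B genes, and 0 above. Among them were Nostrin, which binds Nos3, at 0.52, 1.42, 1.145 and 1.095, and the transcription factor gene Sox18 at 0.541, 1.24, 1.25 and 1.51. Some genes went against it: Slc16a1 on chip B had 0.21 to 0.214 on all arrays, in contrast to chip A, and was lower there (-2.24 ± 0.01), so its probe sets disagree. Limma called 4 of these 19 chip B genes, each lower, against 30.9% of all chip B genes: beside Slc16a1 they were Rasip1 (-1.69 ± 0.05), Gata2 (-0.60 ± 0.08) and Sox17 (-0.57 ± 0.25), all SD, n = 4. Rasip1 (0.645, 1.443, 0.945 and 1.491 in replicates 1 to 4) and Gata2 (0.513 to 0.963) were not called on chip A. The chip B values of Slc16a1, Rasip1 and Gata2 were also about as even as genes of other organs, with the same limit.

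Of 35 other mural and fibroblast genes on chip A 6 were higher and 5 lower in limma (17.1% and 14.3%, against 9.17% and 32.9% of all genes), with a median of -0.09. The higher ones were genes of vessel and meningeal fibroblasts and their matrix, led by the transporter Slc6a13 (0.96 ± 0.77, limma adjusted p = 0.0416), Prelp (0.85 ± 0.57), Fbln1 (0.59 ± 0.35), Fmod (0.57 ± 0.25) and Col5a1 (0.33 ± 0.19). The lower ones were Gper1 (-0.79 ± 0.08), Tpm2 (-0.59 ± 0.34), the smooth muscle myosin gene Myh11 (-0.36 ± 0.21), Foxc1 (-0.36 ± 0.20) and Igf2 (-0.24 ± 0.08), all SD, n = 4. Gper1 and Igf2 were about as even as genes of other organs (median SD 0.08). That does not settle whether their probe sets read these transcripts, which is unknown. In replicate 3 9 of the 35 (25.7%) lay at least 1.5-fold above the median of the other arrays, against 5.1% of all genes, and 2 below (4.26% of all genes). Slc6a13 was among the 9, with ratios of 1.13, 1.83, 4.08 and 1.7 in replicates 1 to 4. Replicate 1 had 0 above and 7 below (20%), against 3.53% and 4.81% of all genes. Replicate 2 had 2 above and 5 below (5.71% and 14.3%), against 4.77% and 4.44%. Replicate 4 had 5 above and 2 below (14.3% and 5.71%), against 4.25% and 4.66%. The collagen gene Col1a1 had 0.968, 0.856, 1.71 and 2.72, and so was highest in replicate 4. On chip B 0 of 9 lay 1.5-fold above in replicate 3, against 4.61% of all chip B genes, and Tbx18, a mural transcription factor gene, was higher (0.63 ± 0.23, SD, n = 4; limma adjusted p = 0.0075). Of the genes called on chip A, Fbln1 (0.975 to 1.255), Tpm2 (0.955 to 1.003), Foxc1 (0.95 to 1.0) and Myh11 (0.669 to 0.962) were not called there.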

How the data were processed

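The members and gene lists were chosen with earlier results of these data known. Per the labels' protocols, RNA was labelled as Affymetrix prescribes for small samples. The submitters' processing notes list RMA, a method of background correction and normalization, as the tool. Each table deposited by the authors holds a linear ratio per probe set and array; what it is relative to is unknown here. Array types were analysed separately.

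Ratios were put on the log2 scale. Control probe sets (57 per type) were left out. Names came from the platform annotation: 1 symbol for 12783 (chip A) and 7564 (chip B) probe sets, several for 312 and 100, and none for 2771 and 7612. Probe sets of 1 gene were averaged, and limma 3.58.1 (R 4.3.3) was fitted across all named genes of a type, with an intercept and eBayes, two-sided, Benjamini-Hochberg adjusted, after tests on simulated data. The number of arrays, 4 per type, limits the precision. Every member with a value is named, and of 2 further vessel lists the called genes, up to the 5 largest each way. Aldoc, Csf1r, Adgrl4, Mmrn2, Nostrin, Sox18 and Col1a1 were named after their values were seen. Same-numbered arrays of both types deviated together over 100 shared probe sets (r from 0.736 to 0.823), and were read as pairs. Alternatives were array centring, another prior, other probe set summaries, a pseudocount of 0.1, a filter at a mean ratio of 0.5 and leaving out each replicate.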

Additional observations from a re-analysis of the deposited data

Results flagged for a closer look

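In 2 of 36 gene and array type combinations 1 array lay further from the others than Dixon's test at the 95% level allows for 4 values, where chance alone flags about 1 in 20. Eng on chip A had a ratio of 0.519 in replicate 1, a gap of 0.838 of its range. Dcn on chip A had a ratio of 1.78 in replicate 3, a gap of 0.831 of its range. The arrays concerned are those in which most endothelial genes were lowest and most mural and fibroblast genes highest. Both flags rest on the same ratios as those patterns and come near the chance share, so they are no separate evidence for them.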

How the results depend on the processing

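Calls over all genes stayed within 1.5 times under every alternative run, on both types. In place of 7 members called on chip A, 4 were called with arrays centred on their medians, all among the 7. With a replicate left out 3 to 10 were called, of which 3, 3, 5 and 5 were among the 7 without replicates 1, 2, 3 and 4. The 1 on chip B was called throughout. Over all single members and alternatives, 364 values kept their side of the threshold, 20 lost a call and 11 gained one. The call of Ogn reversed to -0.15 (limma adjusted p = 0.235, not called) with each gene's lowest probe set. Vcam1 and Plvap were called under every alternative. Tagln was lost under 7 (limma adjusted p from 0.0503 to 0.135) and Icam1 under 3 (0.0519 to 0.0596). The endothelial minus mural difference, 0.05 ± 0.45 (SD, n = 4), moved by less than 1 SD throughout, but its sign changed. It ran from -0.12 to 0.19 with a replicate left out. It was -0.10 with each gene's highest probe set and 0.30 without fibroblast genes. Leaving out 1 of 4 values cannot move a mean by 1 SD, so that part of the check could not fail. At 2-fold, 3 mural and fibroblast genes in place of 7 lay above in replicate 3. No paired analysis was possible because the groups that share replicate numbers are array types, which were not compared. A ratio hides the signal over background, so dim probe sets could not be told from bright ones.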
